A study of Danio rerio with 10 samples.

Results

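The genes described here are the protein disulfide isomerases and the ER oxidases of the zebrafish liver. They were chosen by gene name and comprise 10 of the 32105 Ensembl identifiers in the count tables: pdia2 (ENSDARG00000018263), pdia3 (ENSDARG00000102640), pdia4 (ENSDARG00000018491), pdia5 (ENSDARG00000069242), pdia6 (ENSDARG00000009001), p4hb (ENSDARG00000105116), txndc5 (ENSDARG00000009342), erp44 (ENSDARG00000019008), ero1a (ENSDARG00000015228) and ero1b (ENSDARG00000103915). Each name matched 1 identifier, and all 10 genes entered the test at both ages, although pdia2 had 10 and 6 reads in 1 of the 78 hpf groups.

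Proteins that enter the secretory pathway acquire disulfide bonds in the ER. Protein disulfide isomerases carry thioredoxin-like domains, whose cysteine pairs hand a disulfide to the client or rearrange one that is wrongly paired, and the Ero1 oxidases restore the isomerases by passing their electrons to oxygen. The liver is a professional secretory organ that exports fibrinogen, transferrin and lipoproteins, many of which hold disulfides. Atf6 is a sensor of the unfolded protein response (UPR): when misfolded proteins accumulate, its cytosolic part is released, enters the nucleus and activates genes for ER chaperones and folding enzymes.

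RNA was counted in 10 libraries from pooled, dissected livers of larvae from the line Tg(fabp10:nAtf6-cherry; cmlc2:GFP)C, in which the hepatocyte promoter fabp10 drives the nuclear fragment of Atf6 (nAtf6) and a green heart marks the carriers. At 5 dpf, 3 pools of 25 livers from nAtf6 TG larvae and 3 pools of 25 livers from non-transgenic siblings were taken from outcrosses to WT TAB 14 fish, in 3 clutches, and ribosomal RNA was removed with Ribo-Zero Gold. The labels of these libraries also name polyA RNA, and the text on the whole series names a cross with Tg(fabp10a:CAAX-EGFP) at both ages. At 78 hpf, 4 pools of 20 livers came from 2 clutches of a cross with Tg(fabp10a:CAAX-EGFP), so that carriers and siblings alike had green livers, and polyA RNA was selected. No treatment other than the anaesthetic before dissection is named, and only allele C of the transgene was used.

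The labels of the 78 hpf libraries conflict. The 2 libraries titled as siblings were deposited under the nAtf6 name, the 2 titled as transgenics were deposited under the sibling name, the treatment text follows the deposited names, and 1 genotype is entered for all 4. The groups are called nAtf6-named (titled sibling) and sibling-named (titled transgenic) here, and every 78 hpf difference is nAtf6-named minus sibling-named. By the titles alone, each 78 hpf direction would turn. The atf6 identifier, on which reads of the transgene can also fall, had 90.6, 97.0 and 78.0 CPM in 5 dpf siblings 1 to 3 and 439.8, 540.5 and 543.3 in nAtf6 TG 1 to 3. At 78 hpf it had 185 and 338 CPM in the nAtf6-named libraries and 85.7 and 45.8 in the sibling-named ones, so the libraries titled transgenic were the lower ones for atf6.

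Values are CPM, the counts of a library brought to a sum of 1000000 on library sizes scaled with TMM within each age. The libraries of 5 dpf held 17622825 to 22963880 counts on genes and those of 78 hpf 4868321 to 6354867. All 12 hepatocyte markers were detected in every library. At 5 dpf they summed to 83460 to 147200 CPM in siblings and to 57600 to 68520 in nAtf6 TG, and 2 of the 12, cp and hp, fell. The groups of hp overlapped, at 1.481 to 42.68 CPM in siblings and 1.815 to 2.196 in nAtf6 TG. Of the tested markers of other tissues, 1 of 4 for intestine, 1 of 3 for erythrocytes and 1 of 8 for muscle fell. In the same 5 dpf test none of 7 for the endocrine pancreas passed, and none of any of these lists rose. The groups of the intestine marker that fell, chia.1, and of the muscle marker that fell, myhz2, overlapped. Over all genes, 7.48% fell at 5 dpf. The part of these tissues in the results was not tested. At 5 dpf, sibling 2 and nAtf6 TG 1 stood apart from the other libraries of their groups. A chi-square per degree of freedom over genes gave 83.3 and 88.4 between sibling 2 and the other siblings and 13.1 between siblings 1 and 3, and it gave 54.5 and 59.8 between nAtf6 TG 1 and the other nAtf6 TG libraries and 2.9 between nAtf6 TG 2 and 3. At 78 hpf the 8 muscle markers summed to 5857 CPM in sibling-named 2 and to 85.1 to 1004 in the other 3 libraries. The hepatocyte markers summed to 36220 and 40340 CPM in nAtf6-named 1 and 2 and to 66550 and 25550 in sibling-named 1 and 2. Entries not aligned were 20.8% in sibling-named 2 and 8.6 to 9.3% in the others. The part of these library differences in the 78 hpf results was not tested.

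At 5 dpf, the 10 genes together took 0.185, 0.169 and 0.200% of the reads on genes in siblings 1 to 3 and 1.2, 1.51 and 1.45% in nAtf6 TG 1 to 3. Every nAtf6 TG library was above every sibling library, with means of 0.185% ± 0.0155 and 1.39% ± 0.164 (SD, n = 3 each). Of the 10 genes, 6 rose in nAtf6 TG livers and none fell (edgeR quasi-likelihood test, Benjamini-Hochberg adjusted p under 0.05 over 18470 genes). Those that rose were pdia4, pdia6, pdia3, erp44, p4hb and txndc5, whereas pdia5, ero1b, ero1a and pdia2 did not pass the test. Over all genes, 21.2% were called, 13.7% as higher and 7.48% as lower, and the median log2 fold change was −0.036, against 0.91 for the 10 genes. At an unadjusted p under 0.05 there were 7 of the 10 genes, pdia5 in addition, and 37.2% of all genes (20.5% of all genes as higher). In 7 of the 10 genes all nAtf6 TG libraries were above all siblings, and in none were they all below. The groups were apart in this way in 39.8% of all genes, with 22.6% of all genes higher in nAtf6 TG and 17.2% lower. In bulk tissue, fewer cells of a type and less RNA per cell cannot be told apart.

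**Figure D1:**
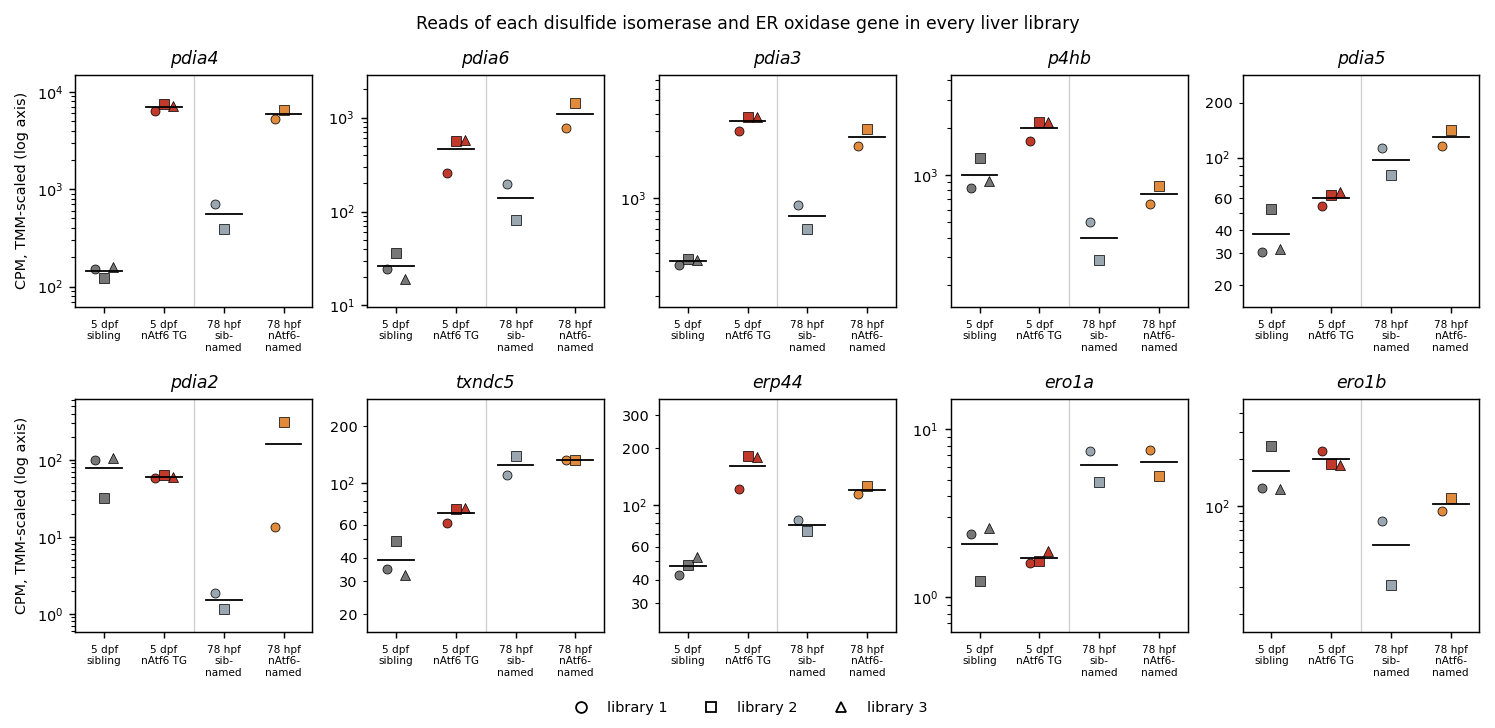
Reads of the 10 genes in each of the 10 libraries, as TMM-scaled CPM on a log axis, by group. Points are libraries (shape gives the library number) and black bars are group means. At 5 dpf pdia4 was at 123 to 157 CPM in siblings and at 6368 to 7513 in nAtf6 TG, while ero1a was at 1.24 to 2.58 and 1.60 to 1.89. The 78 hpf groups are named as the counts were deposited; the titles give the opposite groups.

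The isomerases with the greatest differences were pdia4, pdia6 and pdia3. Pdia4, known as Erp72 in mammals, carries an additional thioredoxin-like domain and associates with the chaperone BiP. Its level was 150, 123 and 157 CPM in siblings 1 to 3 and 6368, 7513 and 7204 CPM in nAtf6 TG 1 to 3. All nAtf6 TG libraries were high, the siblings lay within 1.28 times of each other, and the groups were far apart. The fold change was 49.0, or 5.62 ± 0.26 (SE) on the log2 scale, with an adjusted p of 6.07e-05. By log2 fold change pdia4 ranked 49 from the top of the 18470 genes tested.

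Pdia6 is a small isomerase, also called P5, which acts on BiP-bound clients in mammalian cells. Pdia6 transcripts were at 24.3, 35.9 and 19.2 CPM in siblings 1 to 3 and at 254, 568 and 578 CPM in nAtf6 TG 1 to 3. The groups did not overlap, but nAtf6 TG 1 was the lowest of its group by a factor of 2.28 to the highest. The log2 fold change was 4.14 ± 0.42 (adjusted p = 0.000909). Without sibling 2 and nAtf6 TG 1, the libraries that stood apart, it was 4.77.

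Pdia3, known as Erp57 in mammals, is brought to glycoproteins by calnexin and calreticulin. It was at 330, 363 and 358 CPM in siblings 1 to 3 and at 3025, 3809 and 3797 CPM in nAtf6 TG 1 to 3. Siblings differed from each other by no more than 1.1 times, and nAtf6 TG 1 was again the lowest of its group. The log2 fold change was 3.34 ± 0.22 (adjusted p = 0.000179), a 10.1-fold rise.

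P4hb is the founding isomerase of the family and also serves as the beta subunit of collagen prolyl 4-hydroxylase and as the small subunit of the microsomal triglyceride transfer protein. It was at 822, 1279 and 920 CPM in siblings 1 to 3 and at 1637, 2180 and 2162 CPM in nAtf6 TG 1 to 3. Sibling 2 was the highest sibling and nAtf6 TG 1 the lowest nAtf6 TG library, and the groups did not overlap. The log2 fold change of 0.98 ± 0.25 passed the test with an adjusted p of 0.0322. This call was lost in 7 of 15 other settings, in all of which the direction was kept. Among them were the leaving out of sibling 1, sibling 3, nAtf6 TG 2 or nAtf6 TG 3, and the summing of nAtf6 TG 2 and 3.

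Txndc5, called Erp46 in mammals, also carries thioredoxin-like domains, and its transcripts were at 35.0, 48.9 and 32.1 CPM in siblings 1 to 3 and at 61.3, 72.6 and 73.9 CPM in nAtf6 TG 1 to 3. The groups were apart, with sibling 2 the highest sibling. The log2 fold change was 0.84 ± 0.21 (adjusted p = 0.0281). Leaving out any one of the same 4 libraries as for p4hb ended the call, as did summing nAtf6 TG 2 and 3.

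Pdia5, which in human cells rearranges the disulfides of ATF6 itself, was at 30.4, 52.5 and 31.8 CPM in siblings 1 to 3 and at 54.2, 62.6 and 64.6 CPM in nAtf6 TG 1 to 3. The groups did not overlap, but sibling 2 came close to nAtf6 TG 1. The log2 difference of 0.66 ± 0.24 did not pass the test (adjusted p = 0.0905). Without sibling 2 it was 0.98 and was called (adjusted p = 0.00347), in a fit that called 7598 of 20061 genes. On library sizes alone, with every library kept, it was 0.77 and was called (adjusted p = 0.0143, edgeR), with 3205 of 18470 genes called. Without TMM scaling, pdia5 was at 33.8, 39.7 and 35.1 CPM in siblings and at 55.1, 64.8 and 65.7 in nAtf6 TG.

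Erp44 is a thioredoxin-like protein that cycles between the ER and the Golgi and retrieves Ero1 and unfinished secretory proteins. It was at 42.1, 47.8 and 52.8 CPM in siblings 1 to 3 and at 122, 183 and 180 CPM in nAtf6 TG 1 to 3. All nAtf6 TG libraries were above the siblings, and erp44 rose 3.40-fold (log2 fold change 1.77 ± 0.22, adjusted p = 0.00211).

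Neither oxidase gene passed the test at 5 dpf. Ero1b was at 131, 244 and 129 CPM in siblings 1 to 3 and at 228, 187 and 184 CPM in nAtf6 TG 1 to 3. The groups overlapped because sibling 2 was above every nAtf6 TG library, and the log2 difference was 0.25 ± 0.29 (adjusted p = 0.556). Without TMM scaling, siblings 1 to 3 had 145, 185 and 142 CPM and nAtf6 TG 1 to 3 had 231, 193 and 187. The groups did not overlap on that scale, and the log2 difference of 0.37 did not pass the edgeR test (adjusted p = 0.164). Without sibling 2 the difference was 0.64 and passed the test (adjusted p = 0.0172), as did 7598 of 20061 genes in that fit.

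Ero1a was the gene of the 10 with the fewest reads, 21 to 60 in each 5 dpf library. It was at 2.38, 1.24 and 2.58 CPM in siblings 1 to 3 and at 1.60, 1.65 and 1.89 CPM in nAtf6 TG 1 to 3. The sibling values lay on both sides of those of nAtf6 TG, and the log2 difference was −0.28 ± 0.32 (adjusted p = 0.555). The counting error alone was wide here: for the 21 reads of sibling 2, the exact 95% interval ran from 0.770 to 1.90 CPM. Ero1a did not pass the test in any of the 15 other settings.

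The log2 differences of the 10 genes at 5 dpf thus ran from 5.62 in pdia4 to −0.38 in pdia2, and the mix of reads on the 10 genes differed between the groups. Among these reads, p4hb held 49.4 to 57.4% in siblings and 13.9 to 15.1% in nAtf6 TG, although p4hb itself rose. The share of pdia4 was 5.52 to 9.00% in siblings and 50.4 to 53.9% in nAtf6 TG, and that of pdia3 was 16.3 to 19.8% and 25.6 to 26.5%. These are shares of reads, which also depend on the lengths of the transcripts, so they give no order of the genes in molecules.

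**Figure D2:**
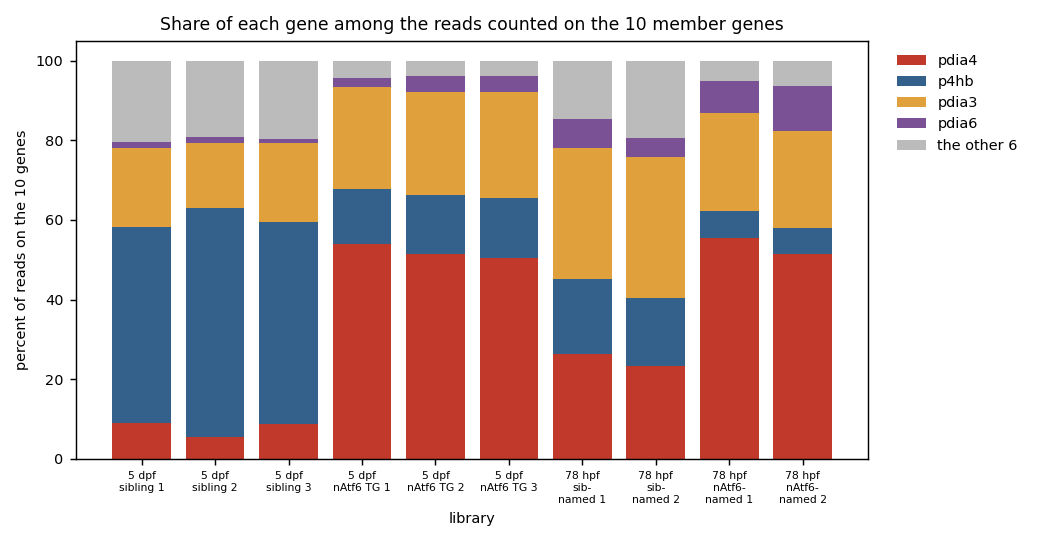
Share of pdia4, p4hb, pdia3, pdia6 and the other 6 genes, in percent of the reads counted on the 10 genes, in each library. In 5 dpf siblings p4hb held 49.4 to 57.4% of these reads, in 5 dpf nAtf6 TG pdia4 held 50.4 to 53.9%, and at 78 hpf pdia4 held 51.3 and 55.5% under the nAtf6 name and 23.3 and 26.3% under the sibling name (titles give the opposite groups).

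Pdia2 is the isomerase that mammals make mainly in the pancreas in the adult. Pdia2 was at 98.5, 31.9 and 106 CPM in siblings 1 to 3 and at 58.2, 64.3 and 59.19 CPM in nAtf6 TG 1 to 3. Siblings 1 and 3 were above and sibling 2 below all nAtf6 TG libraries, and the log2 difference was −0.38 ± 0.41 (adjusted p = 0.525). Without sibling 2 it was −0.74 and passed the test (adjusted p = 0.00583), in the direction of lower in nAtf6 TG. In that fit 7598 of 20061 genes were called.

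Markers of the exocrine pancreas, the acinar tissue that lies beside the liver, were read beside pdia2. Of 17 marker names, 13 matched, with 15 identifiers. Their summed level was 4367, 2052 and 4838 CPM in siblings 1 to 3 and 1947, 1112 and 1123 CPM in nAtf6 TG 1 to 3, so sibling 2 was the lowest sibling for the markers as it was for pdia2. Of the 14 markers tested, 7 fell (7.48% of all genes did), none rose, and the median log2 fold change was −1.44. Set against this sum, pdia2 was 2.26, 1.55 and 2.20% of it in siblings and 2.99, 5.79 and 5.27% in nAtf6 TG. The part of pancreatic RNA in the values of pdia2, or of the other 9 genes, was not tested.

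**Figure D3:**
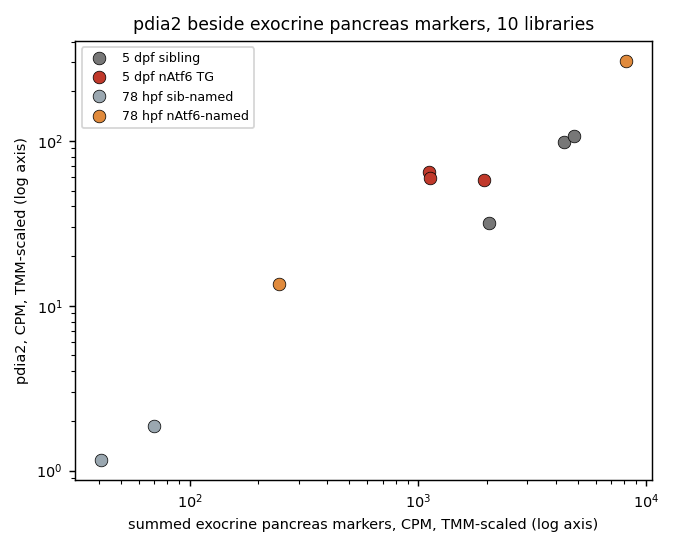
CPM of pdia2 against the summed CPM of 15 exocrine pancreas marker identifiers, both TMM-scaled and on log axes, 1 point for each of the 10 libraries, coloured by group. The lowest point is sibling-named 2 of 78 hpf (1.16 CPM of pdia2, 41.1 CPM of markers) and the highest is nAtf6-named 2 of 78 hpf (307 and 8110).

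Without both libraries that stood apart, 9 of the 10 genes were called at 5 dpf, with ero1a the exception, and 13690 of 19941 genes were called in all. Of these 9, pdia2 was lower in nAtf6 TG (log2 fold change −0.68) and the other 8 were higher. The calls of pdia3, pdia4, pdia6 and erp44 held in all 15 other settings tried at 5 dpf.

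At 78 hpf, the question was whether the same genes already differed at this earlier age. The 10 genes took 0.975 and 1.23% of the reads in nAtf6-named 1 and 2 and 0.254 and 0.179% in sibling-named 1 and 2. In 8 of the 10 genes both nAtf6-named libraries were above both sibling-named ones, and in none were they below. Over all genes the groups were apart in 39.1%, with 19.9% higher and 19.3% lower. With 2 libraries in each group, none of the 10 genes passed the edgeR quasi-likelihood test after adjustment, as none of the 14555 genes tested did (0% called). At an unadjusted p under 0.05 there were 5 of the 10 genes, all higher, against 5.97% of all genes in either direction and 3.39% higher. Among the 5 was pdia2, which had 10 and 6 reads in the sibling-named libraries and most of its reads in nAtf6-named 2. Pdia2 passed the filter on low counts only with the nAtf6-named libraries, so its place among the 5 carries this selection. Under a minimum of 10 counts in every library it was not tested. DESeq2 called 4 of the 10 genes (pdia2, pdia3, pdia4 and pdia6), with 180 of 23500 genes called (0.766%). The 23500 are all genes with reads, including any left without an adjusted p, so this share is not on the footing of the edgeR shares. An edgeR model of all 10 libraries called pdia3 and pdia4, with 0.568% of all genes called. None of these fits paired the 78 hpf libraries by clutch, although the titles number the clutches. An edgeR fit within 78 hpf with a block by clutch number called 0 of 14555 genes.

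Pdia4 had 5291 and 6561 CPM in nAtf6-named 1 and 2 and 709 and 394 CPM in sibling-named 1 and 2. The groups were far apart, with a log2 difference of 3.43 ± 0.38 (unadjusted p = 0.000521, adjusted p = 0.221, edgeR). Pdia6 had 771 and 1434 CPM against 195 and 80.7, and pdia3 had 2346 and 3107 CPM against 888 and 601. The groups of both genes were apart, and the log2 differences were 3.00 ± 0.60 for pdia6 (unadjusted p = 0.00567, adjusted p = 0.509) and 1.87 ± 0.30 for pdia3 (unadjusted p = 0.00251, adjusted p = 0.348). In all 3 genes nAtf6-named 2 was the higher library of its group. Sibling-named 2, the 78 hpf library with the lowest hepatocyte marker sum, was the lower of its own. With DESeq2 the adjusted p of pdia4 was 1.93e-11, that of pdia6 was 8e-05 and that of pdia3 was 0.000587.

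Erp44 had 114 and 126 CPM under the nAtf6 name and 83.5 and 72.2 CPM under the sibling name. The libraries of each group were close and the groups apart, and the log2 difference was 0.62 ± 0.21 (unadjusted p = 0.0382, adjusted p = 0.814, edgeR). P4hb had 655 and 853 CPM against 504 and 289, with a log2 difference of 0.93 ± 0.36 (adjusted p = 0.814). For p4hb the difference ran from 0.58 to 1.45 when 1 library was left out, with 0.58 without sibling-named 2, the library with the most muscle markers.

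Pdia5 had 116 and 142 CPM in the nAtf6-named libraries and 114 and 80.5 in the sibling-named ones. The groups touched closely without overlapping, and the log2 difference of 0.42 ± 0.28 did not pass the test (adjusted p = 0.814, edgeR). Txndc5 had 131.9 and 132.2 CPM against 109.8 and 139.5, so that the nAtf6-named libraries lay between the sibling-named ones, and its log2 difference was 0.083 ± 0.23 (adjusted p = 0.936).

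Ero1b had 92.7 and 112 CPM under the nAtf6 name and 80.3 and 30.7 under the sibling name. The groups were apart only through a small gap, and the log2 difference was 0.88 ± 0.51 (adjusted p = 0.814, edgeR). This difference ran from 0.35 to 1.81 when 1 library was left out, with 0.35 without sibling-named 2. Ero1a had 7.54 and 5.27 CPM against 7.41 and 4.85, from 25 to 49 reads a library, and its groups overlapped nearly fully (log2 difference 0.064 ± 0.41, adjusted p = 0.976).

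Pdia2 had the largest log2 difference of the 10 genes at 78 hpf and the widest error. It had 13.6 and 307 CPM in nAtf6-named 1 and 2 and 1.85 and 1.16 CPM in sibling-named 1 and 2. Nearly all of its reads were in 1 library, nAtf6-named 2, which held 1748 of them, against 88, 10 and 6 in the others. The log2 difference was 6.71 ± 1.80 (unadjusted p = 0.017, adjusted p = 0.75, edgeR), and it was 3.16 without nAtf6-named 2 and 7.66 without nAtf6-named 1. For the 6 reads of sibling-named 2 the exact 95% interval ran from 0.427 to 2.53 CPM. The exocrine pancreas markers summed to 246 and 8110 CPM in the nAtf6-named libraries and to 70.0 and 41.1 in the sibling-named ones, and pdia2 was 5.51, 3.78, 2.65 and 2.83% of these sums. The 12 markers tested had a median log2 difference of 6.25 (0 called by edgeR, 11 at an unadjusted p under 0.05). Some of them entered the test only through the nAtf6-named libraries, such as ela3l, with 9 and 1 reads in sibling-named 1 and 2. The number at an unadjusted p under 0.05 carries this selection. The acinar factor ptf1a was at 0 in the 3 libraries other than nAtf6-named 2. The endocrine markers ins, sst2, pcsk1 and pcsk2 were at 0 in both sibling-named libraries, and all 8 endocrine marker identifiers were present in nAtf6-named 2. The rest of this list had reads in both groups. Pdx1 was at 5.27 to 12.8 CPM in the nAtf6-named and 7.57 to 9.07 in the sibling-named libraries. In the same order isl1a was at 4.39 to 5.39 and 2.78 to 2.91 CPM. Neurod1 was at 0.770 to 5.09 and 0.185 to 2.52, and gcga at 5.39 to 13.2 and 0.370 to 0.388. The part of pancreatic RNA in the difference of pdia2 was not tested.

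**Figure D4:**
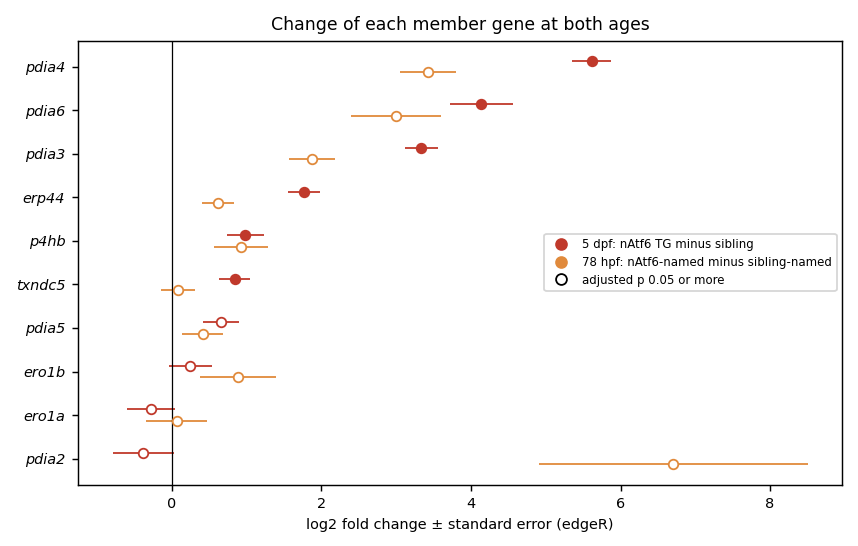
Log2 fold change of each of the 10 genes with its standard error (edgeR), at 5 dpf (nAtf6 TG minus sibling, red) and at 78 hpf (nAtf6-named minus sibling-named, orange; the titles give the opposite direction). Filled points passed an adjusted p of 0.05. At 5 dpf pdia4, pdia6, pdia3, erp44, p4hb and txndc5 are filled, from 5.62 to 0.84, and at 78 hpf none is, with pdia2 at 6.71 ± 1.80.

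The difference between the ages was tested in 1 edgeR model of all 10 libraries, as the 78 hpf difference minus the 5 dpf difference. None of the 10 genes passed this test, and 14 of 20595 genes did (0.068%). At an unadjusted p under 0.05 there were 4 of the 10 genes, against 13.2% of all genes: pdia2, pdia4, pdia3 and erp44. Pdia4 was lower by 2.07 ± 0.48 at 78 hpf than at 5 dpf (adjusted p = 0.135), pdia3 by 1.33 ± 0.43 (adjusted p = 0.245) and erp44 by 1.01 ± 0.35 (adjusted p = 0.273), all as differences of log2 fold changes. For pdia2 the 78 hpf difference was the larger by 7.26 ± 1.55 (adjusted p = 0.122). This value ran from 3.56 to 8.20 when 1 library was left out, and most pdia2 reads of 78 hpf were in nAtf6-named 2. The remaining 6 genes had values between −0.997 and 0.76. With the 78 hpf groups taken by title, 6 of the 10 genes passed this test, all with the lower difference at 78 hpf: pdia4, pdia6, pdia2, pdia3, erp44 and p4hb. By title 1786 of all 20595 genes passed, 1428 of them with the lower difference at 78 hpf. Taking the titles turns the sign of every 78 hpf difference before the 5 dpf difference is subtracted. Age, library preparation and the extra green-liver line of the 78 hpf cross cannot be told apart in this comparison.

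Levels at the ages are set side by side with the limit that they were scaled separately and came from different preparations. TMM factors fitted over all 10 libraries were 0.622 to 0.985 at 5 dpf and 1.11 to 1.46 at 78 hpf. The orders, gaps and overlaps here are given for the separate scaling and can turn on the other. In pdia4, pdia3 and erp44 the order of the group means was 5 dpf nAtf6 TG, 78 hpf nAtf6-named, 78 hpf sibling-named and 5 dpf sibling, and the ranges of the first pair of groups overlapped while the others were apart. In pdia6 the 78 hpf nAtf6-named libraries were highest and no neighbouring groups overlapped. With the factors over all 10 libraries, the nAtf6-named and 5 dpf nAtf6 TG libraries would overlap in pdia6. The sibling-named and 5 dpf sibling libraries would overlap in erp44 and narrowly in pdia3, while the first pair in pdia4, pdia3 and erp44 would be apart. Pdia5, txndc5 and ero1a were higher in both 78 hpf groups than in both 5 dpf groups. With the factors over all 10 libraries this would hold for ero1a, but sibling-named and 5 dpf nAtf6 TG libraries would overlap in pdia5 and txndc5. In p4hb and ero1b the order was 5 dpf nAtf6 TG, 5 dpf sibling, 78 hpf nAtf6-named and 78 hpf sibling-named. The 5 dpf groups overlapped in ero1b, and 5 dpf sibling and 78 hpf nAtf6-named libraries overlapped in p4hb. This overlap in p4hb would be gone with the factors over all 10 libraries.

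Over the 10 libraries, the genes whose log2 CPM, on library sizes without TMM scaling, was most like that of pdia4 were MANF (Pearson r = 0.9967), calr3a (0.9966) and os9 (0.9956), among 20595 genes. Those most like ero1a were ftr67 (0.9895), EDF1 (0.984) and EGLN1 (0.9811), named as in the table of identifiers. Among the 10 genes themselves, pdia3 and pdia4 were most alike (r = 0.997), and p4hb was most like ero1b (r = 0.909). These values describe 10 libraries in 4 groups of 2 ages, which share preparation within an age, and are not tests.

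Genes that work with the isomerases were read from the same 5 dpf fit, in which 21.2% of all genes were called, 13.7% as higher and 7.48% as lower. Of 13 tested genes for partner proteins, 9 rose and none fell, with a median log2 fold change of 2.08. Hspa5 (BiP), the ER Hsp70 to which Pdia6 and Pdia4 bind, had a log2 fold change of 4.40, and the cyclophilin gene ppib one of 3.33. Among the lectins that recruit Pdia3, calr3b, calr3a and calr had values of 4.01, 3.79 and 3.55, and canx 1.49. All of these passed the test.

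The partners of P4hb divided. Of the genes for catalytic alpha subunits of collagen prolyl 4-hydroxylase, p4ha2 (2.08) and p4ha1b (1.79) rose, while p4ha1a (0.37, adjusted p = 0.259) and p4ha3 (−0.80, adjusted p = 0.173) did not pass the edgeR test. Without nAtf6 TG 1, p4ha3 passed it (−1.25, adjusted p = 0.0267), and with sibling 2 left out as well both passed, at −0.996 for p4ha3 and 0.36 for p4ha1a. The gene mttp, for the large subunit of the triglyceride transfer protein that P4hb joins, had 0.40 (adjusted p = 0.324). It passed the edgeR test without sibling 2 (0.75, adjusted p = 0.0105), without both libraries (0.68) and on library sizes alone (0.52). Without nAtf6 TG 1, 5778 of 20181 genes were called, and without sibling 2, 7598 of 20061. Of the tapasin genes, tapbp.1 rose (2.75, adjusted p = 0.0139) and tapbp.2 had 0.23 (adjusted p = 0.673). Both had few reads: tapbp.1 was at 0.387 to 0.474 CPM in siblings and at 1.07 to 4.58 in nAtf6 TG. Tapbp.2 was at 0.474 to 0.817 and 0.604 to 0.907 CPM, where 3 counts in a 5 dpf library were worth 0.129 to 0.178 CPM. The call of tapbp.1 was lost in 5 of 14 other settings, among them the leaving out of sibling 1, sibling 3, nAtf6 TG 2 or nAtf6 TG 3. Reads of such close paralogs can be shared, which makes their separate counts uncertain.

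Receptors that return ER residents from the Golgi by their KDEL-type tails were matched by 2 of 4 names with 3 identifiers. Kdelr3 (ENSDARG00000040912) rose by a log2 fold change of 1.92 and kdelr2a by 1.41, while a second identifier of kdelr3 did not pass the test. The call of kdelr2a was lost in 5 of 15 other settings, among them the leaving out of any 1 of the same 4 libraries.

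Of 16 tested genes on a list of other thioredoxin-fold proteins of the ER, 6 rose and 1 fell, with a median log2 fold change of 0.46. The list was wider than that fold, as it also held creld1a and creld2, which both rose. The largest rise was that of selenom, a selenoprotein of the ER, from 1.86 ± 0.611 CPM to 172 ± 56.2 (SD, n = 3 each), a log2 fold change of 6.52 (adjusted p = 0.000132). It was larger than that of pdia4. Creld2 (4.01) and txndc16 (2.56) also rose. The 1 that fell was tmx3a, which was at 0.559 to 0.652 CPM in siblings and at 0.0857 to 0.165 in nAtf6 TG, where 3 counts in a library were worth 0.129 to 0.165 CPM. Its call was lost in 6 of 13 other settings, among them the leaving out of sibling 1, nAtf6 TG 2 or nAtf6 TG 3.

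A list of other ER oxidation genes showed no common direction: of 8 tested, 1 rose and 2 fell, with a median of −0.074. The list was wider than disulfide formation, as it also held sumf1 and sumf2, neither of which passed the test. Vkorc1, the vitamin K epoxide reductase, rose (log2 fold change 0.96, adjusted p = 0.0401), a call lost in 7 of 15 other settings. Qsox1 and qsox2, sulfhydryl oxidases that form disulfides without Ero1, fell by 0.99 and 0.65 on the log2 scale, calls lost in 3 and in 7 of the 15 settings. Of 19 tested genes for thiol redox proteins of the cytosol and the mitochondria, which lie outside the ER, 1 rose (txndc9, 0.81) and 2 fell (prdx6, −0.98, and glrx5, −0.79), with a median of 0.11. Over all genes in this fit, 13.7% were called as higher and 7.48% as lower. The call of txndc9 was lost in 8 of 15 settings and those of prdx6 and glrx5 in 6 each. For these 6 genes the settings that lost the call included the leaving out of nAtf6 TG 2 and of nAtf6 TG 3, of sibling 3 except for qsox1, and of sibling 1 except for qsox1 and qsox2, and the direction was kept in all 15.

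**Figure D5:**
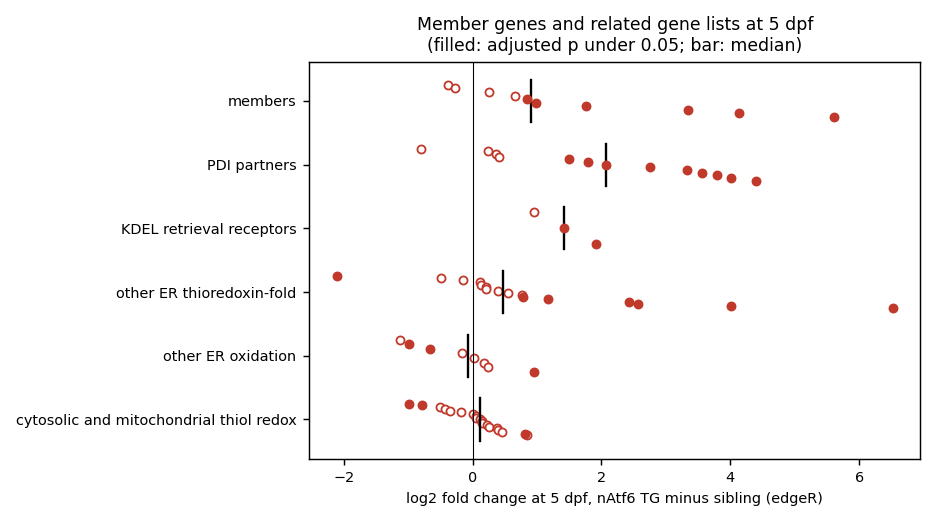
Log2 fold change at 5 dpf (nAtf6 TG minus sibling, edgeR) of the 10 genes and of the tested genes of 5 related lists, 1 point for each gene. Filled points passed an adjusted p of 0.05 and vertical bars are list medians. These are 0.91 for the 10 genes, 2.08 for their partners and 1.41 for the KDEL receptors. The list of other ER thioredoxin-fold genes, creld1a and creld2 included, has 0.46. The median is −0.074 for other ER oxidation genes and 0.11 for cytosolic and mitochondrial redox genes.

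At 78 hpf none of the genes of these 5 lists passed the edgeR test. At an unadjusted p under 0.05 there were 6 of 10 partners, 4 of 14 genes of the thioredoxin-fold list, creld2 among them, and 1 of 9 other oxidation genes. All of these were higher in the nAtf6-named libraries. None of the 3 KDEL receptor identifiers or of the 19 redox genes reached that threshold. Over all genes the share was 5.97% in either direction and 3.39% as higher. Hspa5 had a log2 difference of 2.95 between the nAtf6-named and the sibling-named libraries, calr one of 2.54 and selenom one of 4.69. The tested partners of P4hb had 0.57 (p4ha2), −0.098 (p4ha1b), −0.75 (p4ha1a) and 0.40 (mttp).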

How the data were processed

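The authors deposited raw counts for each Ensembl identifier, as 1 table for the 6 libraries of 5 dpf and 1 list for each of the 4 libraries of 78 hpf. Per the labels and the submitters' processing notes, the 5 dpf reads were handled with FastQC 0.11.5, Trimmomatic, TopHat2 2.1.0 and HTSeq, and the 78 hpf reads with CASAVA, MultiQC 1.7 and HTSeq, both on GRCz10. The annotation release and the aligner of 78 hpf are not given in the sources used here. Entries of htseq-count that name no gene held 35.3 to 47.4% of each 78 hpf list and were left out.

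The 10 genes and the lists of partners, related genes and cell type markers were chosen with earlier results of these data known. Gene names came from a table that names 26269 of 32105 identifiers. Counts were tested in R 4.3.3 with edgeR 4.0.16 (filterByExpr, TMM, quasi-likelihood test, Benjamini-Hochberg adjustment over all genes tested), with genes called at an adjusted p under 0.05, within 5 dpf, within 78 hpf and, for the difference of ages, over all 10 libraries. A standard error is the log2 fold change divided by the root of the F value. The code was tested on simulated data. Alternatives were other scalings and filters, DESeq2 1.42.0, 1 model of 10 libraries, a replicate block, each library left out, nAtf6 TG 2 and 3 summed and, chosen after seeing the data, both 5 dpf libraries that stood apart left out and a crossed block at 78 hpf. Named beside the 10 genes were atf6, up to 3 genes with the largest and the smallest called change at 5 dpf in each related list, and known partners. Exact (Clopper-Pearson) 95% intervals cover counting error only. Pools within a group came from separate clutches per the protocols, but the labels do not say which 5 dpf number marks which clutch. Lengths were not used, so levels were not compared between genes.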

Additional observations from a re-analysis of the deposited data

How the results depend on the processing

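At 5 dpf, the directions of the 10 genes held under all 15 alternatives. The number called was 4 to 9 when 1 library was left out and 5 with a replicate block, against 6. Between 1361 and 7598 genes were called with 1 library left out, 1417 with nAtf6 TG 2 and 3 summed, 13690 without sibling 2 and nAtf6 TG 1, and 3128 with the block, against 3913. In that fit without both libraries tapbp.2 turned to −0.0082. Summing nAtf6 TG 2 and 3 ended the calls of p4hb and txndc5 among the 10 genes. Among the other named genes it ended those of kdelr2a, tapbp.1, tmx3a, qsox1, qsox2, vkorc1, prdx6, glrx5 and txndc9. The other fits take nAtf6 TG 2 and 3, the most alike pair of libraries, as separate pools, which was not tested. Same-numbered 5 dpf libraries had correlations of 0.0915, 0.0697 and −0.0722 after removal of group means. Because sibling 2 and nAtf6 TG 1 stood apart, these values cannot decide whether the numbers mark shared clutches. At 78 hpf, 8 genes were called without a filter, 1 under a minimum of 10 counts in every library, 180 by DESeq2 (4 of the 10 genes) and 117 in 1 model of 10 libraries (2 of the 10 genes), against 0. A block by clutch number called 0 (610 at an unadjusted p under 0.05), and a crossed block 0 (1293), where the correlation of same-numbered libraries was −0.145. Leaving out 1 library turned ero1a (−0.21 to 0.47) and txndc5 (−0.010 to 0.27). For the difference between ages, 77 genes were called under that minimum, 0 with a block within age, 0 to 506 with 1 library left out (0 to 1 of the 10 genes) and 1786 with 78 hpf groups by title (6 of the 10 genes), against 14. By title the difference turned for pdia2 (−6.58), p4hb (−2.07) and ero1b (−1.27). Leaving out 1 library turned that difference for pdia5 (−0.45 to 0.22), p4hb (−0.31 to 0.59) and atf6 (−0.99 to 0.19). The cause was not tested. There were 2 libraries a group at 78 hpf.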
